A study of Mus musculus with 4 samples.

Results

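Feedback genes of EGF and FGF signalling were chosen by name, as 10 of the 22225 protein-coding genes annotated in GENCODE vM1 on the mouse genome build mm9: Spry1, Spry2, Spry4, Spred1, Spred2, Dusp4, Dusp6, Etv1, Etv4 and Etv5. Each gene was given a window from its gene body to 100 kb on either side, and the deposited ChIP-seq sites and enhancer regions that shared at least 1 bp with a window were counted for that gene. The 10 windows span 2365 kb and held 69 of 19956 Med1 sites, 27 of 8759 Carm1 sites, 22 of 8078 Jmjd1c sites and 26 of 8089 enhancer regions. Chromatin came from NS-5, a line of mouse neural stem cells (NSCs) derived from embryonic stem cells, and was precipitated with an antibody against Med1, Carm1 or Jmjd1c, or with control IgG. All 4 samples were untreated and were grown with EGF and FGF2 at 10 ng/mL each, so that the pathway had its ligands throughout and no cells without ligand were compared. There was 1 sample per antibody, all from 1 cell line, so that samples could not be tested against each other and p-values are not given. Counts and shares are thus descriptions of these 4 samples, and intervals cover the number of sites only.

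EGF and FGF bind receptor tyrosine kinases and activate the Ras-Raf-MEK-ERK cascade, on which NSCs depend for their growth in culture. Active ERK raises the transcription of genes whose products then restrain the cascade: Sprouty and Spred proteins act on the steps from receptor to Raf, and dual specificity phosphatases remove the phosphates that activate ERK. The ETS factors Etv1, Etv4 and Etv5 are transcriptional effectors of the same pathway, and Capicua, a repressor that ERK inactivates, is known to keep several of these genes low when the signal is absent. Med1 is a subunit of Mediator, which passes signals from DNA-bound factors to RNA polymerase II. Carm1 is an arginine methyltransferase and Jmjd1c belongs to the family of H3K9 demethylases.

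Marker genes of NSCs and other cell types were counted as well, in short lists that do not settle the identity of the cells. A Med1 site lay within 1.5 kb of the 5′ end of 8 of 9 NSC marker genes, of 0 of 5 pluripotency genes, of 0 of 4 endothelial genes, of 0 of 4 microglial genes and of 1 of 4 neuronal genes. Among all protein-coding genes 41.6% had one. The lists gave positions without height, summit or p-value, and without read totals the depth of a site or signal is unknown. Med1 sites had a median width of 1502 bp, against 269 bp for Carm1 and 312 bp for Jmjd1c, so counts were compared within a list and not between lists. IgG signal per kb of enhancer region had a median of 209.5 on chromosome 11, where Spred2 and Etv4 lie, against 131.7 over all regions.

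Every feedback gene had Med1 at its promoter, taken as 1.5 kb on either side of the 5′ end. The count was 10 of 10, where 41.6% of protein-coding genes had such a site. A Carm1 site lay at the promoter of 7 of the 10, namely Spry4, Spred2, Dusp4, Dusp6, Etv1, Etv4 and Etv5, where 9.77% of protein-coding genes and 20.2% of genes with a promoter Med1 site had one. Spry1, Spry2 and Spred1 had no Carm1 site there. Jmjd1c gave another picture, with a promoter site at Dusp6 alone, or 1 of 10, beside 8.61% of protein-coding genes and 17.8% of genes with a promoter Med1 site. Without Spred2 and Etv4, the members on chromosome 11, promoter Carm1 sites were found at 5 of 8 genes and promoter Jmjd1c sites at 1 of 8.

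**Figure D1:**
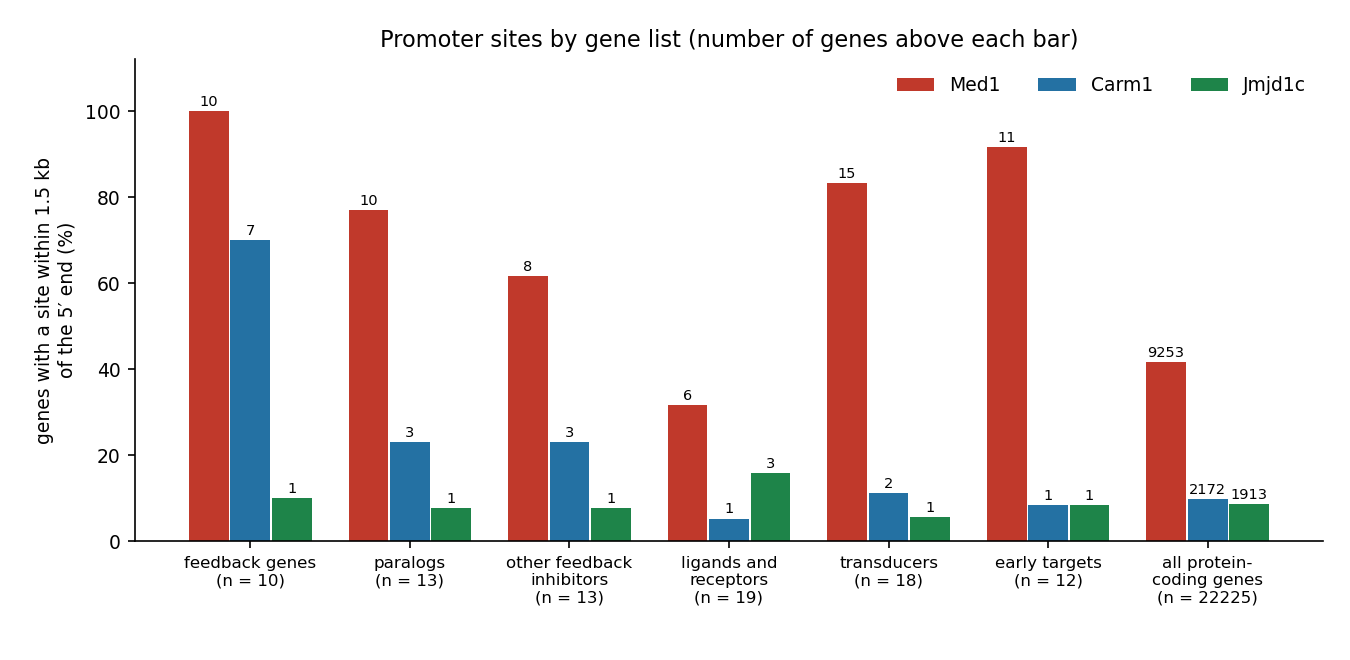
Share of genes with a Med1, Carm1 or Jmjd1c site within 1.5 kb of the 5′ end, in percent, for the 10 feedback genes, 5 lists of other pathway genes and all protein-coding genes; the number of genes stands above each bar. Med1 reaches 10 of 10 and Carm1 7 of 10 feedback genes, while Carm1 is found at 3 genes or fewer in each of the 5 other pathway lists.

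Promoter Med1 sites of the feedback genes were wide. Whether each listed Med1 site is a single call or several joined ones was not settled. The widest site at each promoter measured 13993 bp at Spry4, 12948 bp at Spry2, 12861 bp at Dusp6, 8942 bp at Etv5, 5708 bp at Spred1, 4801 bp at Spry1, 4683 bp at Dusp4, 4286 bp at Etv1, 3581 bp at Spred2 and 3483 bp at Etv4. Their median was 5254.5 bp, and the median over the 9253 genes with a promoter Med1 site was 1824 bp (quartiles 1465 and 2349 bp). A width of 4 kb or more, a limit chosen after these widths were seen, was reached by 8 of 10 members and by 4.29% of genes with a promoter Med1 site. Even the narrowest, at Etv4, was matched or exceeded at only 6.65% of those genes. Med1 sites together covered the whole gene body of Spry2 and Dusp6, 95.3% of Spry4, 89.1% of Spry1, 43.7% of Dusp4, 27.9% of Etv4 and 21.4% of Etv5. For Etv1 the share was 6.09%, for Spred1 5.65% and for Spred2 2.60%. Over the 9253 genes with a promoter Med1 site the median was 5.27% (quartiles 2.36 and 12.9%). Gene length enters these shares and its part was not tested: Dusp6 spans 4258 bp and Spred2 99652 bp. Wide sites were not limited to feedback genes: 9 of 12 early targets of the pathway and 7 of 9 NSC markers also reached 4 kb. In the other lists 0 of 13 paralogs, 0 of 13 other feedback inhibitors, 0 of 18 transducers and 1 of 19 ligands and receptors did. A promoter Med1 site of any width was present at 11 early targets, 8 NSC markers, 10 paralogs, 8 other feedback inhibitors, 15 transducers and 6 ligands and receptors.

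**Figure D2:**
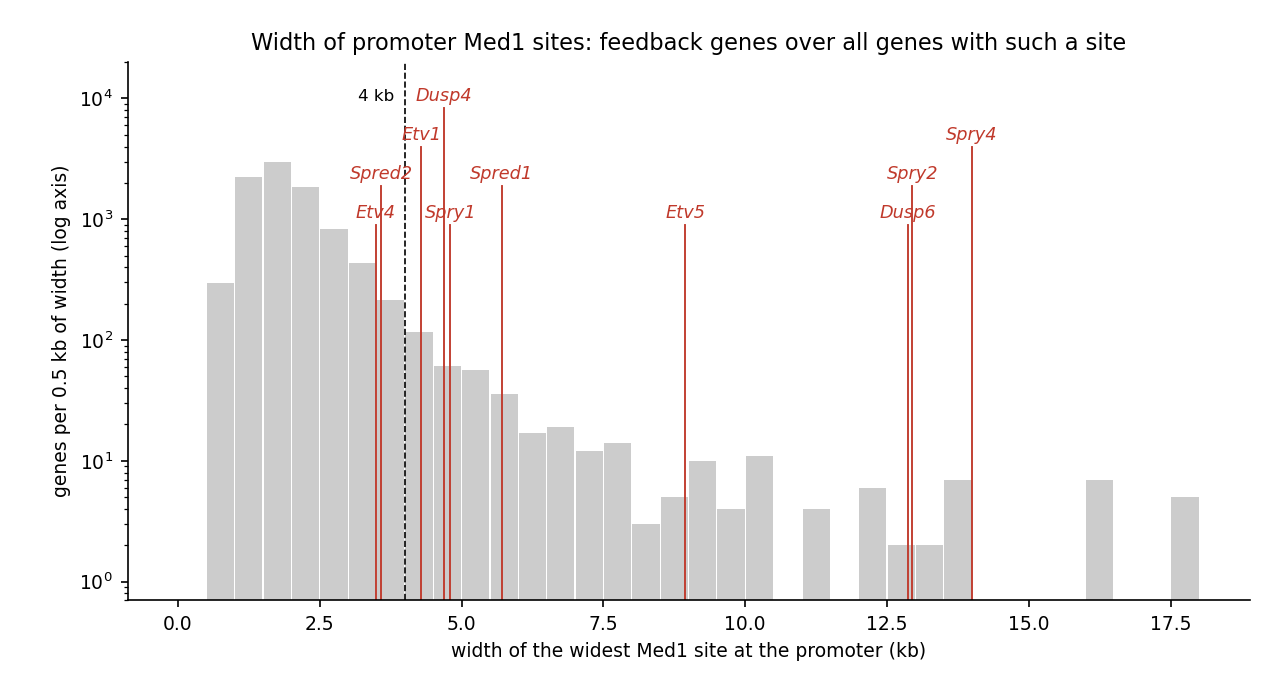
Width of the widest promoter Med1 site in kb, with the number of genes per 0.5 kb of width on a log axis in grey for all 9253 genes with such a site and a red line for each feedback gene. Spry4, Spry2, Dusp6 and Etv5 lie far to the right at 8942 to 13993 bp, and Spred2 and Etv4 fall short of the dashed line at 4 kb.

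Sprouty genes, which encode membrane-associated inhibitors of receptor signalling, differed in how the factors were spread around them. Spry1 (chr3:37538869-37543520, plus strand) had 6 Med1, 3 Carm1 and 2 Jmjd1c sites. Around its promoter there was Med1 alone, and sites shared by all 3 factors lay far downstream, at +83.7 kb in an intron of Gm5148 and at +98.1 kb between genes. Spry2 (chr14:106291166-106296036, minus strand) had 5 Med1, 2 Carm1 and 2 Jmjd1c sites. Its Carm1 and Jmjd1c sites coincided, at +45.2 kb and at -83.2 kb, and both places also held Med1 and an enhancer region whose nearest 5′ end was that of Spry2. Spry4 (chr18:38745922-38760922, minus strand) had 7 Med1, 1 Carm1 and 4 Jmjd1c sites, but no site with all 3 factors. Its Carm1 site overlapped the promoter and all of its Jmjd1c sites lay upstream, from -30.4 to -83.4 kb, in introns of Arhgap26. The 5′ ends of Spry4 and Arhgap26 are 266 bp apart and face away from each other, and the promoter Med1 site covers both. The Carm1 site covers the 5′ end of Arhgap26 but not that of Spry4, and the files cannot tell which gene either site belongs to.

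Spred genes encode Sprouty-related proteins that hold back Ras and Raf. Spred1 (chr2:116947110-117008015, plus strand) had 7 Med1, 2 Carm1 and 1 Jmjd1c sites, with a site of all 3 factors at +89.6 kb, 3′ of the gene and nearer to the 5′ end of Fam98b than to that of Spred1. Spred2 (chr11:19824378-19924029, plus strand) had 6 Med1, 5 Carm1 and 2 Jmjd1c sites. As many Carm1 sites or more were found at 4.09% of protein-coding genes. A Med1 site of Spred2 at -5.35 kb held a Carm1 and a Jmjd1c site that did not touch each other, at -6.80 kb and -3.98 kb, and further Carm1 and Jmjd1c sites without Med1 lay inside the gene at +31.6 kb and +62.7 kb.

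The dual specificity phosphatase genes differed from each other, with few sites at Dusp4 and, at Dusp6, Carm1 and Jmjd1c sites that reached the edge of the promoter. Dusp4 (chr8:35870351-35882948, plus strand), a nuclear phosphatase, had 2 Med1 sites, 1 Carm1 site at +1.22 kb in its own intron and 1 Jmjd1c site at +85.8 kb in an intron of Tnks, and it was the member with no enhancer region in its window. As many Med1 sites or more were found at 68.6% of protein-coding genes. Dusp6 (chr10:98725865-98730122, plus strand), the cytoplasmic phosphatase of ERK, had 7 Med1 sites, of which 6 lay upstream from -16.6 to -90.8 kb and the other covered the gene. Its Carm1 site at -1.58 kb and its Jmjd1c site at -1.51 kb overlapped. Dusp6 was the only feedback gene where sites of all 3 factors reached within 1.5 kb of the 5′ end. The midpoints of its Carm1 and Jmjd1c sites lay beyond that limit, so only a part of each site fell inside. Within 1 kb no member had Jmjd1c, where 8.10% of protein-coding genes did, and when any transcript of a gene counted Dusp6 and Etv4 had it, where 10.2% did.

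Genes of the PEA3 group of ETS factors ranged from few sites at Etv1 to the highest Med1 counts of the members at Etv4 and Etv5. Etv1 (chr12:39505967-39594802, plus strand) had 3 Med1 sites, 2 Carm1 sites and 0 Jmjd1c sites. Etv4 (chr11:101631056-101646685, minus strand) had 12 Med1, 4 Carm1 and 4 Jmjd1c sites, and sites of all 3 factors overlapped in an intron of Etv4 at +12.8 kb. Etv5 (chr16:22381382-22439792, minus strand) had 14 Med1, 5 Carm1 and 5 Jmjd1c sites. As many Med1 sites or more were found at 2.13% of protein-coding genes for Etv5 and at 4.61% for Etv4, with a median of 3 per gene (quartiles 1 and 6). Of the Med1 sites of Etv5, 4 carried all 3 factors: 1 in an Etv5 intron at +9.54 kb, and 3 in the neighbouring gene Dgkg at -70.1, -77.7 and -88.2 kb. A count of 4 or more such sites was reached by 0.756% of protein-coding genes.

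**Figure D3:**
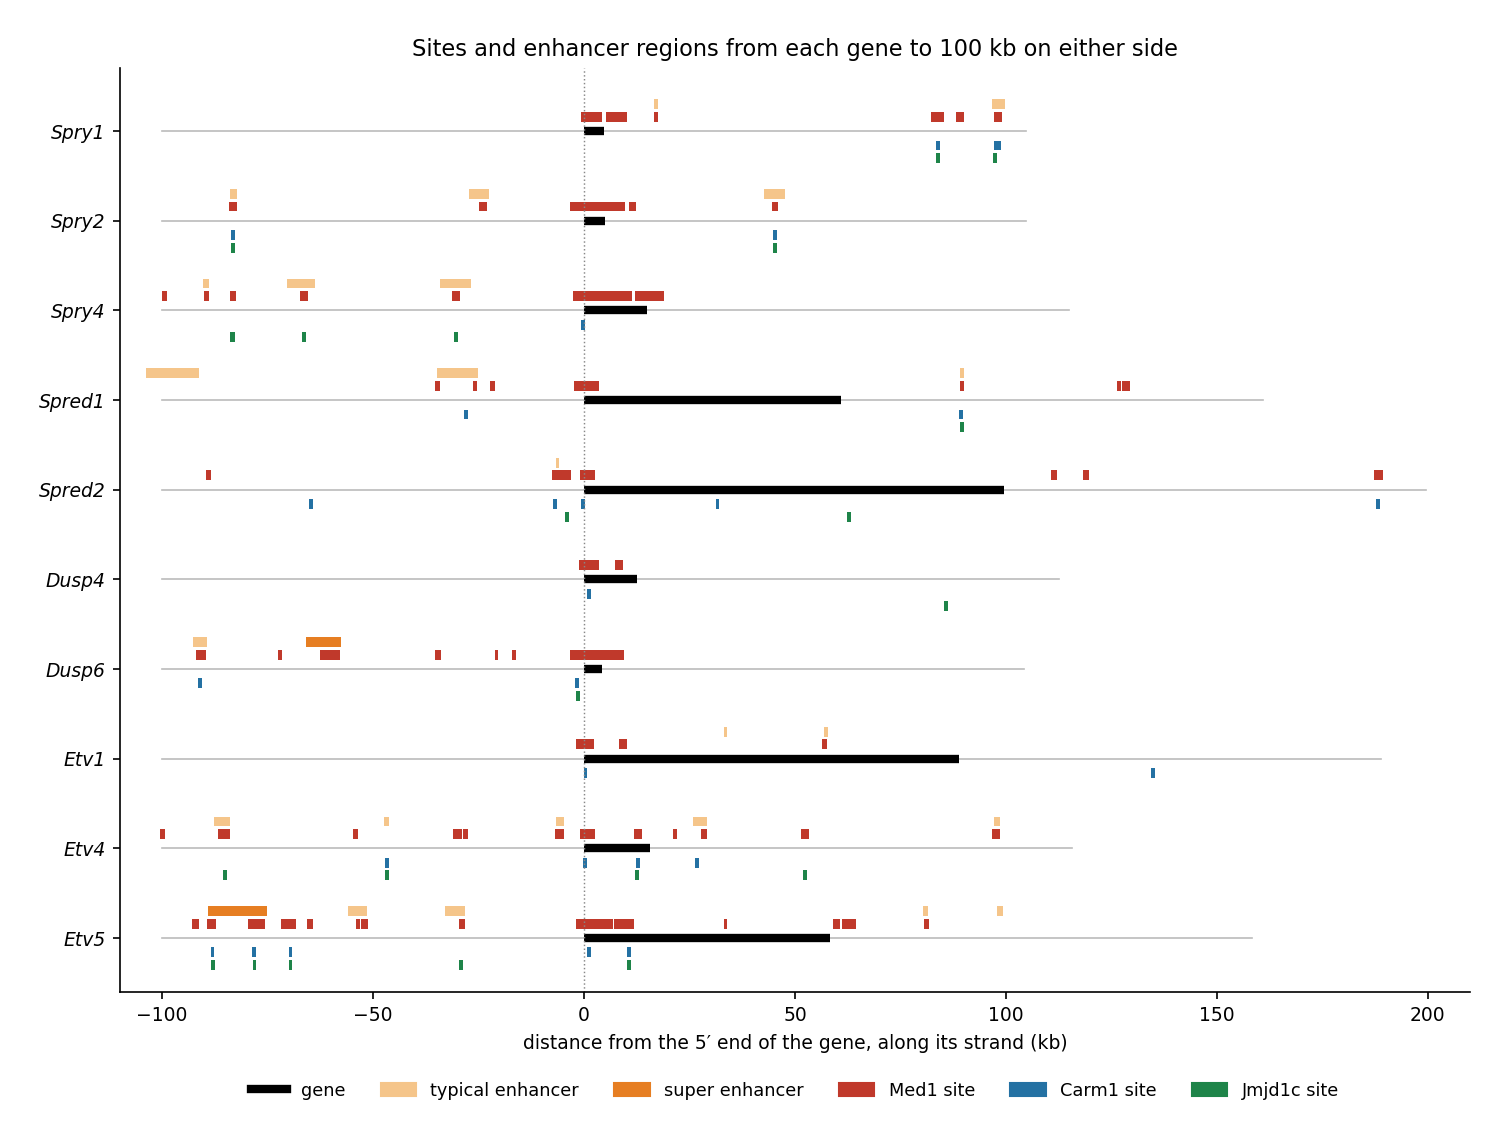
Med1, Carm1 and Jmjd1c sites and enhancer regions of the 10 feedback genes by distance from the 5′ end along the gene's strand, in kb; sites narrower than 0.9 kb and regions narrower than 0.8 kb are drawn at those widths. Med1 covers every 5′ end, and the sites where Carm1 and Jmjd1c coincide lie mostly far from it, as at Spry1, Spry2 and Etv5.

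Carm1 and Jmjd1c sites of the feedback genes mostly lay inside Med1 sites. Of 27 Carm1 sites, 21 overlapped Med1, or 77.8% (95% Wilson interval 59.2 to 89.4), against 56.4% of all Carm1 sites. For Jmjd1c this was 19 of 22, or 86.4% (66.7 to 95.3), against 65.8%. At promoters of any protein-coding gene 9 of 9 Carm1 sites overlapped Med1 (70.1 to 100), against 85.2% of all. Elsewhere 12 of 18 did, or 66.7% (43.7 to 83.7), against 48.3%. For Jmjd1c 3 of 3 did at promoters, against 85.3%, and 16 of 19 elsewhere, or 84.2% (62.4 to 94.5), against 60.5%. Seen from Med1, 20 of 69 sites held Carm1, or 29.0% (19.6 to 40.6), against 23.8% of all Med1 sites, and 18 held Jmjd1c, or 26.1% (17.2 to 37.5), against 25.6%. Both intervals include the share of the whole list. Split by place, at promoters of any protein-coding gene 9 of 15 Med1 sites of the members held Carm1, or 60.0% (35.7 to 80.2), against 20.2% of all promoter Med1 sites, and elsewhere 11 of 54 did, or 20.4% (11.8 to 32.9), against 26.4%. For Jmjd1c the shares were 20.0% (7.05 to 45.2) against 18.3% at promoters, and 27.8% (17.6 to 40.9) against 30.7% elsewhere. The 15 member sites at promoters had a median width of 4286 bp, against 1784 bp for all promoter Med1 sites. Over all places member Med1 sites had a median of 1795 bp, against 1502 bp. An overlap anywhere in a site counted, and the part of width in these shares was not tested. Both Carm1 and Jmjd1c were held by 12 of the 69 Med1 sites, or 17.4% (10.2 to 28.0), against 12.9% of all. Outside promoters the share was 18.5% (10.4 to 30.8) against 17.6%, and at promoters 13.3% (3.74 to 37.9) against 6.27%. A Med1 site with both was in the window of 7 of 10 members, and Spry4, Dusp4 and Etv1 had none. Among protein-coding genes 28.0% had one, and of the 9253 genes with a promoter Med1 site 3591 did. In 11 of the 12 the Carm1 and Jmjd1c sites also overlapped each other, the exception being the site of Spred2, so that 6 of 10 members had bases shared by all 3 factors, where 25.5% of protein-coding genes did. Of the 12 sites, 8 lay more than 40 kb from the 5′ end and 4 within 15 kb of it.

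Enhancer regions were found around 9 of the 10 members, where 51.0% of protein-coding genes had one in the window. Of the 9253 genes with a promoter Med1 site, 5907 had one. The authors' regions are places with Ep300 and H3K27ac, joined where they neighbour each other, and each carries a Med1 and an IgG signal, a read density summed over the region. The 26 regions of the feedback genes had a median Med1 signal of 533.7 per kb and a median IgG signal of 151.9 per kb, against 366.4 and 131.7 over all regions. After subtraction of IgG in each region the median was 363.4 per kb (quartiles 235.4 and 546.0), against 229.4 over all regions (119.2 and 386.5), and 19 of the 26 lay above the latter median. The nearest 5′ end was that of the member for 16 of the 26 regions. The remaining 10 were nearer to another gene, among them all 3 regions of Spry4, nearest to Arhgap26, and regions nearest to Gm5148, Fam98b, Phxr2, Arl4d, Dhx8, Meox1 and Tra2b.

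Super enhancers (SEs), the regions with the highest Med1 minus IgG signal, lay in the windows of 2 of 10 members, Etv5 and Dusp6, where 6.61% of protein-coding genes had one. Of the 9253 genes with a promoter Med1 site, 912 had one. The Etv5 SE (chr16:22514952-22528945) ranked 88 among all regions, and over its 13993 bp Med1 summed to 9612 and IgG to 1954. It lay 82.2 kb upstream in introns of Dgkg, with the 5′ end of Etv5 as the nearest, and held 2 sites each of Med1, Carm1 and Jmjd1c. The Dusp6 SE (chr10:98659891-98668241) ranked 371, and over its 8350 bp Med1 summed to 4775 and IgG to 1064. It lay 61.8 kb upstream between genes, and held 1 Med1 site but no Carm1 or Jmjd1c site. Per kb, Med1 signal was 687 in the Etv5 SE and 571.9 in the Dusp6 SE, where the median of all 445 SEs was 499.05.

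Some typical enhancers of the feedback genes carried more Med1 per kb than these SEs but were short. A region of 1362 bp at +97.8 kb of Etv4, nearest to Arl4d, had a Med1 signal of 1460 per kb and ranked 1403, and a region of 2041 bp at -5.73 kb of Etv4 had 1290 per kb and ranked 1072. IgG signal in the same regions was 364.6 and 389.7 per kb, and all 5 Etv4 regions had IgG of 271.4 per kb or more. The part of the chromosome 11 background in these values was not tested. A region of 267 bp at -6.57 kb of Spred2 had 1098 per kb of Med1 and 180.3 per kb of IgG. At the other end, the 2 regions inside Etv1 had 343.2 and 118.2 per kb of Med1 and ranked 7071 and 7331.

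**Figure D4:**
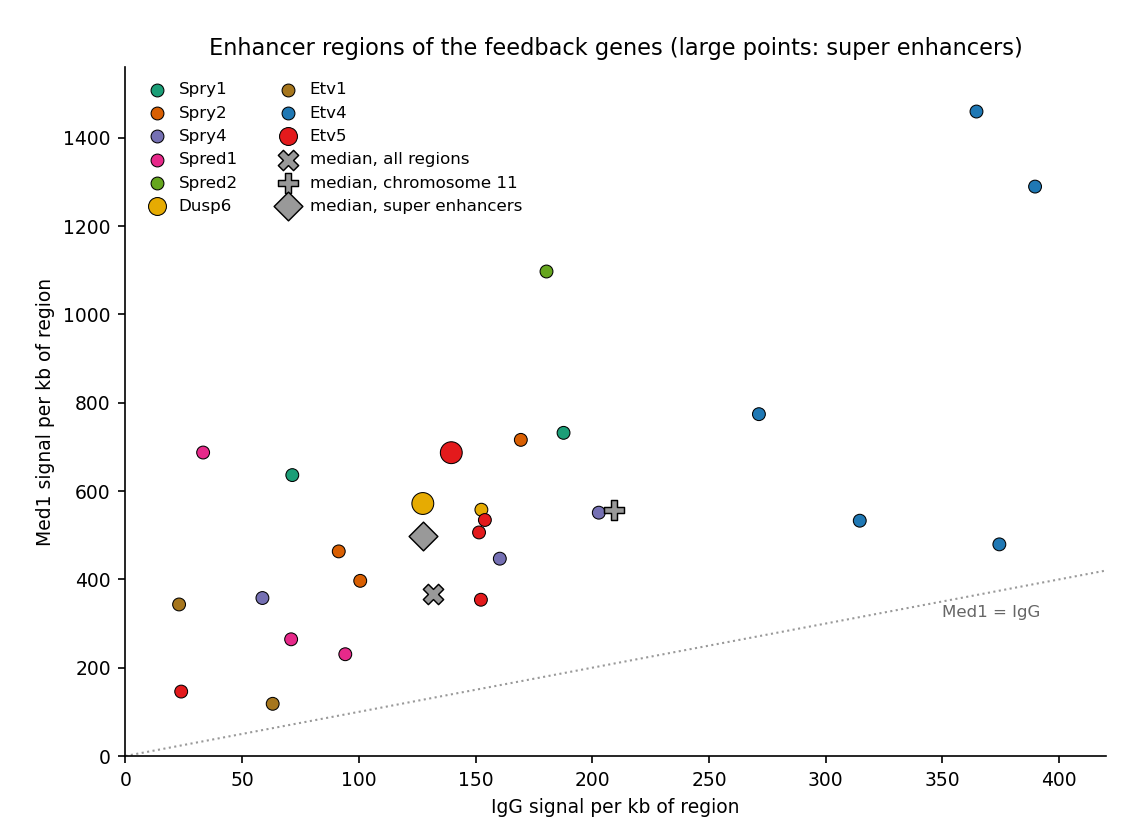
Med1 against IgG signal per kb for the 26 enhancer regions in the windows of 9 feedback genes, with large points for the SEs of Etv5 and Dusp6, grey symbols for medians of other sets and a dotted line where Med1 equals IgG. Every region lies above the line, and the 5 Etv4 regions stand apart at IgG of 271.4 to 389.7 per kb.

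Several feedback genes had their nearest SE just beyond 100 kb. Within 200 kb of the gene body, SEs were found for 7 of 10 members, where 11.2% of protein-coding genes had one, and within 300 kb for the same 7, where 14.9% had one. The nearest 5′ end was mostly that of another gene. Spry1 had the SE of rank 65 at 111.6 kb downstream, nearest to Gm5148, and Spry2 had that of rank 124 at 148.7 kb downstream, nearest to Gm10076. Spred1 had the SE of rank 31 at 139.9 kb upstream, nearest to Tmco5, and Spry4 had that of rank 192 at 139.9 kb upstream, nearest to Arhgap26. Etv4 was 111.1 kb from the SE of rank 1, which is nearest to Arl4d, and Etv5 had a further SE of rank 217 at 102.2 kb, in Dgkg but nearest to Etv5. Spred2, Dusp4 and Etv1 had no SE within 300 kb, and for Etv1 the nearest was 15482 kb away.

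Capicua binds octamers, of which TGAATGAA and TGAATGGA were searched on both strands (TTCATTCA and TCCATTCA on the other strand). Octamers near the 5′ ends were counted after the data had been examined. An octamer lay within 1.5 kb of the 5′ end of 8 of 10 members, where 27.2% of protein-coding genes and 24.9% of genes with a promoter Med1 site had one. Spry2 and Spred1 were the members without. Etv4 had 4, Etv5 had 3, Dusp4, Dusp6 and Etv1 had 2 each, and Spry1, Spry4 and Spred2 had 1 each. A count of 2 or more was thus found at 5 of 10 members, where 4.95% of genes with a promoter Med1 site had as many. In matches per kb, the value was 0.533 around the 5′ ends of the members and 0.111 around those of genes with a promoter Med1 site. Over the whole windows of the members it was 0.170.

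Octamers inside sites numbered 51 over the 10 members, and 29 of these lay in the promoter Med1 site. Each member had at least 1 octamer in its promoter Med1 site, where 15.8% of genes with such a site did. The sites of the members were wider, however, and among the 397 genes with a promoter Med1 site of 4 kb or more 40.1% had one. Per kb of Med1 site at the promoter of any protein-coding gene, the values were 0.341 for the 15 such sites in the windows and 0.0977 for all. For Spry2 and Spred1 these octamers lay beyond 1.5 kb, at +8772 bp and from +1566 bp. Within Carm1 sites the density was 0.844 per kb (7 octamers) against 0.156 per kb of all Carm1 sites, and within Jmjd1c sites 0.708 per kb (6 octamers) against 0.184. In the 200 bp around midpoints, 4 of 27 Carm1 sites had an octamer, or 14.8% (5.92 to 32.5), against 3.22% of all Carm1 sites, and 4 of 22 Jmjd1c sites, or 18.2% (7.31 to 38.5), against 3.63%. These 2 counts share places, since 5 octamers lay under sites of all 3 factors: 3 in the Etv4 intron, 1 in the Etv5 intron and 1 upstream of Spry2.

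Octamers lay singly or close to each other, and to show both 6 stretches of mm9 are given, read 5′ to 3′ on the strand of the gene, with Capicua octamers in capitals. The Etv4 promoter stretch (chr11:101646775-101646875, minus strand) spans -190 to -90 bp from the 5′ end and has 3 octamers under Med1. The Dusp4 promoter stretch (chr8:35870061-35870271, plus strand) spans -290 to -80 bp and has 2 under Med1. The Etv4 intron stretch (chr11:101633925-101634020, minus strand) lies under sites of all 3 factors and has 3 octamers. The Etv5 intron stretch (chr16:22429092-22429192, minus strand) and the Spry2 upstream stretch (chr14:106379216-106379366, minus strand) also lie under all 3 factors and have 1 octamer each. The Spred1 intron stretch (chr2:116948910-116948980, plus strand) lies under Med1 alone and has 2, at +1815 and +1838 bp.
Etv4 promoter: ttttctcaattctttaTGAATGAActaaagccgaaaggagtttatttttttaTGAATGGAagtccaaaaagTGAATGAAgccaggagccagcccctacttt
Dusp4 promoter: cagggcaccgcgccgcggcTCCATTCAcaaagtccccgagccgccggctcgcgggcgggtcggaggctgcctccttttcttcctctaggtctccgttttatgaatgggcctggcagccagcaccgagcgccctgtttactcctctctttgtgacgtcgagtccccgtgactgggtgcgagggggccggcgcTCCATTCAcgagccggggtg
Etv4 intron: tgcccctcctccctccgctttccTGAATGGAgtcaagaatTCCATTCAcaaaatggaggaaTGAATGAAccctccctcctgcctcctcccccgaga
Etv5 intron: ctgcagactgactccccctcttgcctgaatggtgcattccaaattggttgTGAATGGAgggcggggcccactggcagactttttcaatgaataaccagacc
Spry2 upstream: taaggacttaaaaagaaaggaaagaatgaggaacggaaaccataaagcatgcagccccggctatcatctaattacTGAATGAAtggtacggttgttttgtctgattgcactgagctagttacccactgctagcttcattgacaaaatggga
Spred1 intron: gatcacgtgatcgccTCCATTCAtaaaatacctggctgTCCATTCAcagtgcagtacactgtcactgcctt
None of the 6 stretches overlaps an annotated exon.

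**Figure D5:**
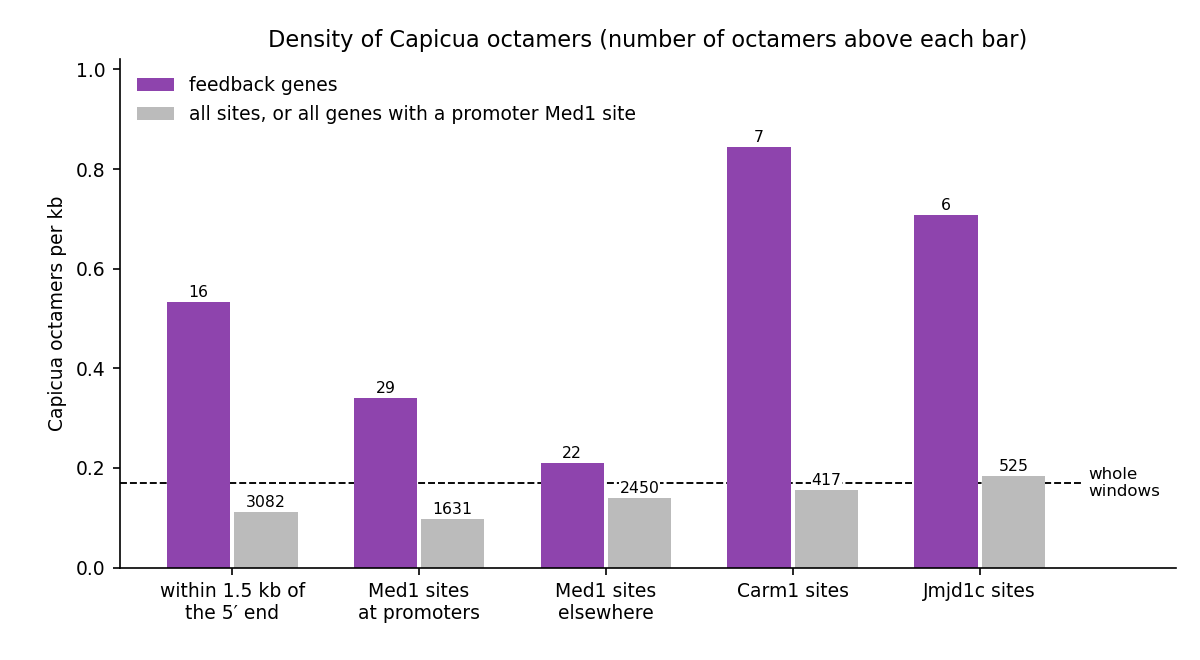
Capicua octamers per kb around the 5′ ends and inside sites, in purple for the feedback genes and in grey for all genes with a promoter Med1 site (first pair) or all sites of the list, with the number of octamers above each bar and a dashed line at the 0.170 per kb of the whole windows. The purple bars stand above the grey in each pair, on counts as low as 6 and 7 octamers for Jmjd1c and Carm1.

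Position within the gene differed between the octamers. Of the 51, 24 lay in introns, 21 between genes and 6 in exons. Dusp6 had exonic octamers at +203, +236 and +3246 bp, Etv4 had one across its annotated 5′ end at -3 bp, and Spry4 had one at -360 bp in an exon of Arhgap26 under Med1 and Carm1. Etv5 had octamers at -209, +923 and +1001 bp, the last of them at the edge of its promoter Carm1 site. Spry2 had a tandem of overlapping octamers at +8772 and +8776 bp. RefSeq promoters (GRCm38.p6, 250 bases before to 50 after a transcription start) were matched for 7 members through 9 promoters, and 0 of the 9 had an octamer, where 2.47% of 32851 promoters had one. Spry4, Dusp4 and Etv4 had no match and are not among the 9.

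Other motifs of the cascade and of NSC enhancers were counted in the same way. The ETS core CNGGAAG, which Etv factors recognise, was found in the 200 bp of 9 of 27 Carm1 sites, or 33.3% (18.6 to 52.2), against 23.7% of all Carm1 sites. In Jmjd1c sites it was found in 8 of 22, or 36.4% (19.7 to 57.0), against 26.5%. The AP-1 pattern TGANTCA, of Fos and Jun, occurred in 1 of 27 and 0 of 22, the E-box CAGNTG in 13 of 27 and 10 of 22, the SOX pattern ACAANG in 12 of 27 and 7 of 22, and the NFI core TTGGC in 9 of 27 and 7 of 22. Over all Carm1 and all Jmjd1c sites the shares were 6.94% and 6.58% for AP-1, and 47.4% and 53.0% for the E-box. For SOX they were 41.3% and 44.3%, and for NFI 45.8% and 48.8%. At 200 bp the intervals of ETS, AP-1, E-box, SOX and NFI all include the share of the whole list. At 100 bp this was not so for NFI in Jmjd1c sites, with 9.09% (2.53 to 27.8) against 28.4%. The cAMP response element TGACGTCA occurred in 0 of 27 and 0 of 22 sites, against 0.537% of all Carm1 and 0.495% of all Jmjd1c sites. The upper bound of the Wilson interval for the 22 Jmjd1c sites was 14.9%, so these zeros do not set the members apart. None of these patterns contains another.

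Other genes of the pathway were counted in 5 lists, where promoter Carm1 was found at 5.26% to 23.1% of the genes by list, beside 70.0% of the feedback genes. Paralogs of the members had promoter Med1 at 10 of 13, promoter Carm1 at 3 and an SE in the window at 2, namely Dusp7 (rank 396) and Dusp1 (rank 411). Other feedback inhibitors had promoter Med1 at 8 of 13, promoter Carm1 at 3 and an SE at 3, namely Lrig1 (rank 93), Il17rd (rank 324) and Cbl (rank 420). Lrig1, which promotes the turnover of EGF receptors, and Il17rd, an inhibitor of FGF signalling, had 3 sites each with all 3 factors. Ligands and receptors had promoter Med1 at 6 of 19, promoter Carm1 at 1 and an SE at 6, among them Fgf1 (rank 56) and Egfr (rank 162). Areg and Ereg, also among them, shared the same SE (rank 425). Fgfr2 had 34 Med1 sites and 5 sites with all 3 factors. Transducers had promoter Med1 at 15 of 18, promoter Carm1 at 2 and an SE at 2, at Braf (rank 32) and Sos2 (rank 330). Early targets had promoter Med1 at 11 of 12, promoter Carm1 at 1 and an SE at 3, at Myc (rank 29), Ier2 (rank 350) and Ier3 (rank 358). At least 1 octamer within 1.5 kb of the 5′ end was found at 6 of 13 paralogs, 3 of 13 other feedback inhibitors, 5 of 19 ligands and receptors, 4 of 18 transducers and 4 of 12 early targets. A count of 2 or more was found at 0 paralogs, 0 other feedback inhibitors, 0 ligands and receptors, 3 transducers and 1 early target.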

How the data were processed

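ChIP-seq files of NS-5 cells covered Med1, Carm1, Jmjd1c and IgG. Per the submitters' notes, the authors mapped to mm9 using Bowtie 0.12.7, removed duplicates (Picard 1.81 is named) and called sites with MACS 1.4.2 against IgG. List names for Carm1 and Jmjd1c end in unequal numbers, and the threshold behind each is not settled here. The Med1 list name ends in mrg_nolowd, and whether its sites were joined or filtered after calling is not settled here either. The deposited signal of Med1 and IgG is read density scaled to mapped reads, which the authors summed with ROSE over regions joined within 12.5 kb, leaving out 1 kb around each TSS. The deposited site lists hold coordinates only. Site positions are written from 1 and region positions as deposited.

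Windows, promoters (1.5 kb on either side of the gene's 5′ end) and motifs were counted in the same-build reference NCBIM37 with GENCODE vM1, for members and for all protein-coding genes alike, in Python 3.11.15 (pysam 0.24.0, pandas 2.3.3, numpy 2.4.6, matplotlib 3.10.9, scipy 1.17.1). In the split of a site list into promoters and the rest, the promoter of any protein-coding gene counted. Overlap means 1 bp or more. Functions were tested on simulated data. The members and lists were chosen with earlier results of these data known. Named genes are all members, list genes with an SE or most three-factor sites, as examples, and genes nearer to a region than the member. Hras and Spry3 were not analysed here. Alternatives covered window and promoter size, overlap, transcripts, number of Med1 sites and motif window.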

Additional observations from a re-analysis of the deposited data

How the results depend on the processing

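With windows of 50 kb and of 200 kb on either side in place of 100 kb, the members had 43 and 108 Med1 sites, 17 and 48 Carm1 sites, 11 and 43 Jmjd1c sites, 15 and 43 enhancer regions, and 6 and 24 sites of all 3 factors. Members with an SE in the window then numbered 0 and 7, where 4.02% and 11.2% of protein-coding genes had one. Sites of all 3 factors numbered 11 when the Carm1 and Jmjd1c sites had to overlap each other, an alternative chosen after seeing the data (11.9% of all Med1 sites). They numbered 5 when midpoints had to lie within 200 bp, for which no share over all Med1 sites is given. Member Med1 sites were wider than all Med1 sites (median 1795 against 1502 bp), and the part of width in this count was not tested. Members with a promoter Jmjd1c site numbered 0 within 1 kb of the 5′ end (8.10% of protein-coding genes) and 2 when any transcript of the gene counted (10.2%). Among the first 5000 Med1 sites of the list, an order whose meaning is not settled here, 23 lay in the windows. Of these, 15 held Carm1, or 65.2%, and 14 held Jmjd1c, or 60.9%, against 37.1% and 34.5% of all first 5000. The other 21 planned values for these comparisons moved less. Among them, members with a promoter Carm1 site went from 7 to 5 within 1 kb of the 5′ end, where the share over all genes was not counted. Also chosen after seeing the data were other limits of width, other distances for octamers, TGAATGAA alone, and leaving out chromosome 11. At a limit of 6 kb, promoter Med1 sites of 4 members passed, where 1.38% of genes with such a site did, and at 3 kb all 10 passed, where 11.3% did. Octamers were found at 6 members within 1 kb (15.9% of those genes), at 9 within 3 kb (45.6%), and at 6 with TGAATGAA alone (16.0%). Shares of motifs in 100 bp around midpoints moved for 7 of 14 combinations of motif and factor, and the Capicua share went from 18.2% to 9.09% of Jmjd1c sites (1.77% of all) and stayed at 14.8% of Carm1 sites (1.64% of all). Without replicates no sample could be left out, and the unknown depth limits all counts. No paired analysis was possible because each antibody had 1 sample.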

Other observations

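The flank of Spry4 beyond its window held further SEs. Upstream, SEs of rank 116 and rank 56 lay 183.7 kb and 286.7 kb from Spry4, both nearest to the 5′ end of Fgf1, which encodes an FGF ligand, and downstream the SE of rank 273 lay 199.7 kb away, nearest to Ndfip1. The SE of rank 116 held 4 Med1, 2 Carm1 and 3 Jmjd1c sites.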
